A study of Mus musculus with 5 samples.

Results

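mmu-miR-103-3p, mmu-miR-107-3p, mmu-miR-191-5p and mmu-miR-425-5p are widely expressed mouse miRNAs, and they were followed here, with the opposite arms of their hairpins, in flagellin-stimulated and unstimulated dendritic cells. They were chosen by name, as every mouse entry on the array called miR-103, miR-107, miR-191 or miR-425 with either arm. This gave 8 arms among the 1122 mouse miRNAs of the array. Feature Extraction called 5 of the 8 detected on all 5 arrays: mmu-miR-103-3p, mmu-miR-107-3p, mmu-miR-425-5p, mmu-miR-191-5p and mmu-miR-191-3p. It called the other 3 (mmu-miR-103-1-5p, mmu-miR-107-5p and mmu-miR-425-3p) detected on no array, as it did 793 mouse miRNAs in all.

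The cells were bone marrow-derived dendritic cells (BMDCs) of C3H/HeJ mice, a strain known for its defective Tlr4, grown with GM-CSF and IL-4 and purified on beads by their CD11c. BMDCs of 3 samples received 100 ng/ml flagellin for 24 h, and BMDCs of 2 samples stayed in medium alone for the same time. Flagellin, a protein of bacterial flagella, is the ligand of TLR5. Total RNA of each sample was hybridized to 1 Cy3 array, and the study describes its experiments as repeated and independent without saying, for the 5 arrays, which samples shared a culture or mouse. The p-values measure the spread between these arrays, which may be technical. All arrays lay on 1 slide, the medium arrays both in column 4 and the flagellin arrays in columns 2, 2 and 3. Treatment and column cannot be told apart.

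miRNAs are short RNAs that guide Argonaute proteins to mRNAs, mainly by pairing of a seed near their 5′ end, and one arm of each hairpin usually accumulates while the other is degraded. miR-103 and miR-107 come from introns of the pantothenate kinase genes and belong to a wider group with miR-15 and miR-16, whose members share an AGCAGC stretch near the 5′ end. miR-191 and miR-425 are made from one transcript of the Dalrd3 locus. All of these, and miR-103 and miR-191 above all, are used as reference miRNAs to scale qRT-PCR measurements, which makes their spread between samples a practical matter.

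The mature sequences show which of these arms the array has to tell apart. They are from RefSeq (GRCm38.p6), written 5′ to 3′, with the seed (bases 2 to 8) in capitals.

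mmu-miR-103-3p: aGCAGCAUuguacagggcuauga

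mmu-miR-107-3p: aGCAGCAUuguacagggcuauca

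mmu-miR-191-5p: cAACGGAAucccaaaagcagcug

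mmu-miR-425-5p: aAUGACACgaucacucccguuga

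mmu-miR-191-3p: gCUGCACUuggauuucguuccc

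mmu-miR-103-3p and mmu-miR-107-3p had the same seed and were identical at 22 of 23 bases, the 1 change being G22C, counted from the 5′ end with the base of mmu-miR-103-3p first. No other mature mouse miRNA in the RefSeq table had this seed, which 2 of 1679 (0.119%) carried. AGCAGC within bases 1 to 8 was found in 13 of the 1679 (0.774%), on the RNA strand only. The wider group is shifted by 1 base against miR-103 and miR-107, as the sequences of mmu-miR-16-5p and mmu-miR-15a-5p show, again with bases 2 to 8 in capitals.

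mmu-miR-16-5p: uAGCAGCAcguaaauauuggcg

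mmu-miR-15a-5p: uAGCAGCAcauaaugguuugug

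In GRCm38.p6, mmu-miR-103-3p comes from both Mir103-1 (chr11:35782396-35782481, plus strand, within Pank3) and Mir103-2 (chr2:131288052-131288137, plus strand, within Pank2). An array of mature miRNAs cannot separate these sources. Mir107 lies within Pank1 (chr19:34820687-34820773, minus strand). Mir191 (chr9:108568319-108568392) and Mir425 (chr9:108568777-108568861) lie within Dalrd3 on the plus strand, with 384 bases between the hairpins. Pank1, Pank2 and Pank3 encode the enzymes that start coenzyme A synthesis.

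The probes read each miRNA from its 3′ end, where mmu-miR-103-3p and mmu-miR-107-3p differ. All 23 probes of the 8 arms matched the 3′ end of the RefSeq sequence. The probe sequences of this pair are shown because a single base at position 2 from the probe's 5′ end, in capitals, separates them (C2G, with the base of the mmu-miR-103-3p probe first).

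mmu-miR-103-3p, 18 nt probe: tCatagccctgtacaatg

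mmu-miR-107-3p, 19 nt probe: tGatagccctgtacaatgc

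These probes shared 16 bases after that position, so RNA of either miRNA could bind the probes of the other, and how much did so was not tested. The longest stretch that a probe of mmu-miR-103-3p, mmu-miR-107-3p or mmu-miR-425-5p shared with any probe outside the 8 arms was 8 nt.

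Each value below is a total gene signal, the sum of the background-subtracted signals of those probes of a miRNA that exceed 3 times their error. It is given as deposited and then after scaling, which divides it by the 75th percentile of that array, taken over the 277 mouse miRNAs with a detection call on every array. These percentiles were 281, 293 and 211 on flagellin replicates 1, 2 and 3, and 282 and 246 on medium replicates 1 and 2. Flagellin replicate 3 was therefore the dimmest array. No spot was saturated, and between 292 and 317 mouse miRNAs were detected per array. Signals of different miRNAs come from different probes and do not rank their amounts.

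mmu-miR-103-3p gave total gene signals of 1715, 1588 and 1211 on the 3 flagellin arrays and of 1497 and 1408 on the medium arrays. After scaling, its values were 6.10, 5.42 and 5.75 with flagellin and 5.30 and 5.72 in medium. The groups overlapped on both scales. The scaled mean was 5.76 ± 0.342 (SD, n = 3) with flagellin and 5.51 ± 0.293 (SD, n = 2) in medium.

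mmu-miR-107-3p, which shares its seed, gave 1178, 1134 and 816 with flagellin and 1004 and 943 in medium. Its scaled values were 4.19, 3.87 and 3.88 against 3.56 and 3.83. All flagellin arrays were above both medium arrays after scaling, but by as little as 3.87 against 3.83, and before scaling the groups overlapped. The scaled means were 3.98 ± 0.184 (SD, n = 3) and 3.69 ± 0.195 (SD, n = 2).

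mmu-miR-425-5p gave 262, 245 and 186 with flagellin and 233 and 209 in medium. Its scaled values, 0.933, 0.836 and 0.883 against 0.825 and 0.848, overlapped. The scaled mean was 0.884 ± 0.0483 (SD, n = 3) with flagellin and 0.836 ± 0.0156 (SD, n = 2) in medium.

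mmu-miR-191-5p, the arm of miR-191 used as a reference, was near the detection limit. Its total gene signals were 7.43, 7.16 and 6.28 with flagellin and 8.10 and 6.70 in medium. The scaled values were 0.0264, 0.0244 and 0.0298 against 0.0287 and 0.0272. The groups overlapped, and the file's own error of these signals was 14.7% to 19.1%, against 7.35% to 8.02% for mmu-miR-103-3p, mmu-miR-107-3p and mmu-miR-425-5p.

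mmu-miR-191-3p, the opposite arm of the same hairpin, gave 8.95, 7.92 and 10.4 with flagellin and 7.98 and 7.90 in medium. Its scaled values were 0.0318, 0.0270 and 0.0494 against 0.0283 and 0.0321. Flagellin replicate 3 stood above the other arrays, and there 1 more probe had passed the detection limit, as given below.

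**Figure D1:**
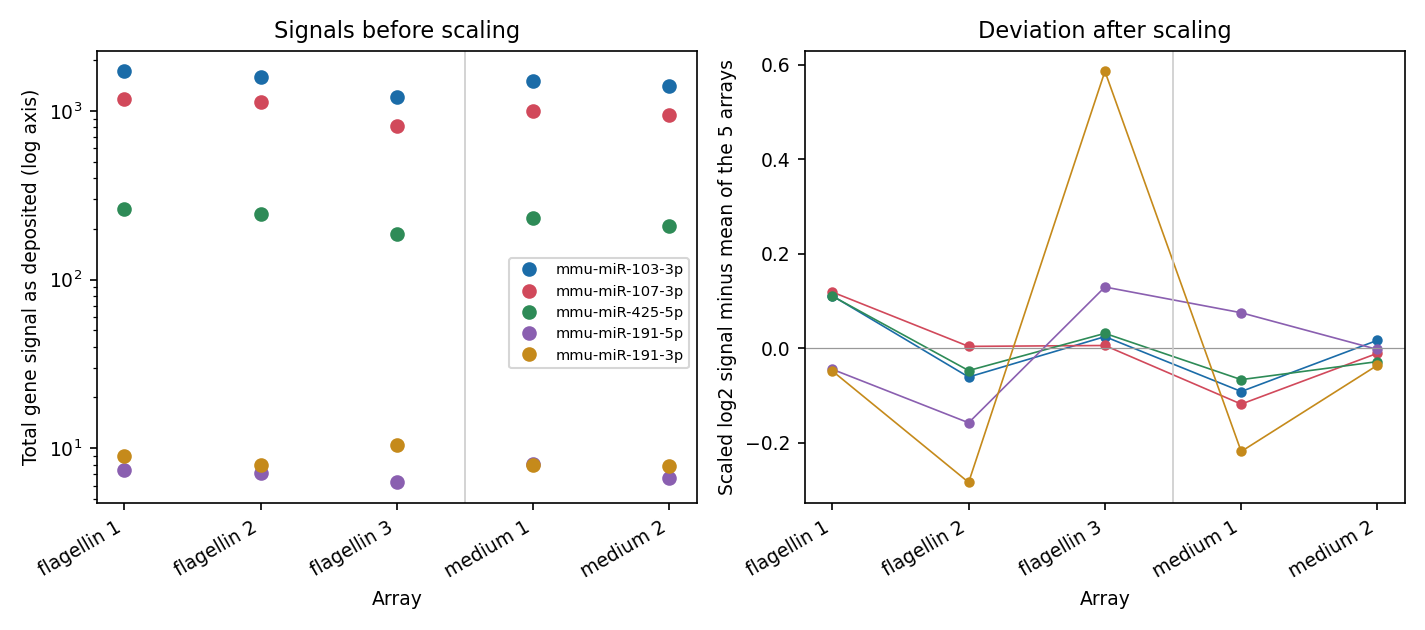
Left, total gene signals as deposited (log axis) of the 5 detected arms on the 3 flagellin and 2 medium arrays. Right, the log2 signal after division by each array's 75th percentile, minus the arm's mean over the 5 arrays. Points are single arrays and the lines only join the points of an arm. mmu-miR-103-3p, mmu-miR-107-3p and mmu-miR-425-5p deviated alike after scaling, and mmu-miR-191-3p stood out on flagellin replicate 3.

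The comparison of flagellin with medium asks whether stimulation changed these miRNAs. None of the 5 detected arms passed limma's test after Benjamini-Hochberg adjustment over the 307 mouse miRNAs detected on at least 2 arrays, where 2 miRNAs (0.651%) passed, and none had an unadjusted p under 0.05, as 18 of the 307 did. Neither of the 2 miRNAs that passed, miR-466i-3p and miR-5112, is one of these arms, both were undetected on the flagellin arrays, and none passed with any single array left out. Of the arms, 4 were higher in the mean with flagellin and 1 was lower. Only mmu-miR-107-3p had its groups apart after scaling, as 11.4% of the tested miRNAs did in the same direction and 8.79% in the other.

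The log2 difference of mmu-miR-103-3p, flagellin minus medium, was 0.06 with a standard error of 0.089 (95% interval −0.17 to 0.30, limma adjusted p = 0.888). That of mmu-miR-107-3p was 0.11 with a standard error of 0.083 (−0.11 to 0.33, limma adjusted p = 0.859). For mmu-miR-425-5p it was 0.08 with a standard error of 0.081 (−0.14 to 0.29, limma adjusted p = 0.859). mmu-miR-191-5p had a negative value, −0.06, with a standard error of 0.11 (−0.36 to 0.23, limma adjusted p = 0.90).

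As folds, the intervals ran from 0.886 to 1.23 for mmu-miR-103-3p, from 0.925 to 1.25 for mmu-miR-107-3p, from 0.910 to 1.23 for mmu-miR-425-5p and from 0.782 to 1.18 for mmu-miR-191-5p. These intervals give the precision of the estimates with 5 arrays. They are not detection limits, and how small a change could be detected was not tested. Without flagellin replicate 1 the difference of mmu-miR-103-3p was −0.02 and that of mmu-miR-425-5p was −0.0006. That of mmu-miR-191-5p turned positive under other scalings (0.12 with the 75th percentile taken over all mouse miRNAs).

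mmu-miR-191-3p had the widest interval of the 5 arms, a log2 difference of 0.21 with a standard error of 0.28 (−0.54 to 0.96, limma adjusted p = 0.885). It was −0.07 without flagellin replicate 3. With only the probes that passed on all 5 arrays summed, a setting chosen after seeing the data, its signal was 8.95, 7.92 and 7.88 on the flagellin arrays against 7.98 and 7.90. The difference was then 0.08 with a standard error of 0.16.

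**Figure D2:**
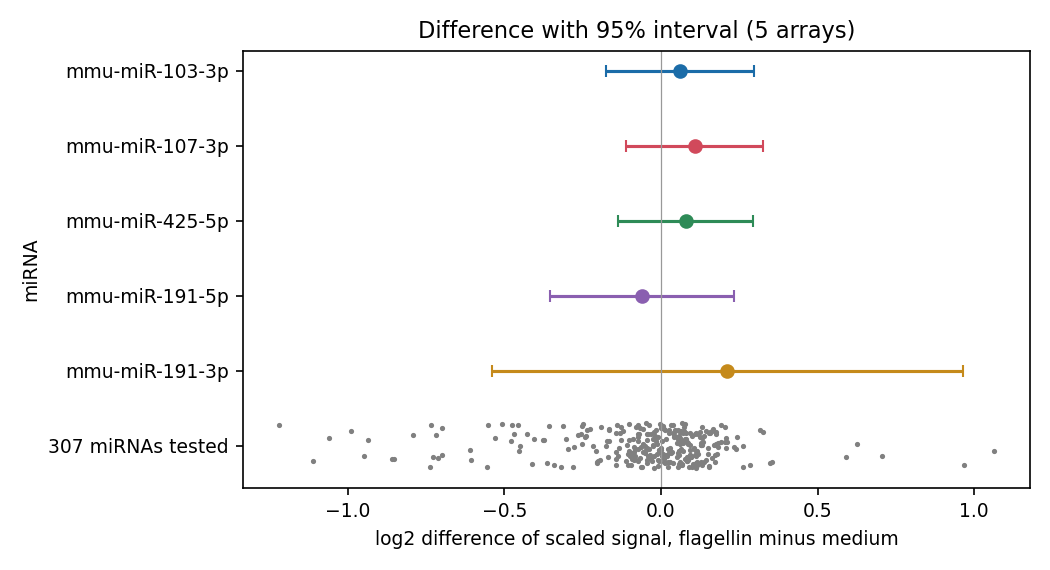
The log2 difference of the scaled signal, flagellin minus medium, of the 5 detected arms with the 95% interval of limma's fit to 5 arrays. The lowest line holds the differences of all 307 miRNAs tested, spread at random in height. Every interval of the 5 arms spans 0, and the interval of mmu-miR-191-3p, from −0.54 to 0.96, is the widest.

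A ratio of a pair of these miRNAs on the same array does not depend on the scaling. The size of such a ratio reflects the probes as well as the RNA, but its spread between arrays can be compared. mmu-miR-103-3p over mmu-miR-425-5p was the steadiest of the 6 pairs, between 6.43 and 6.75 on all arrays, with an SD of 0.027 on the log2 scale. The log2 ratio of mmu-miR-103-3p over mmu-miR-107-3p was 0.54, 0.49 and 0.57 with flagellin and 0.58 and 0.58 in medium. It was thus lower on every flagellin array, by 0.045 in the mean, with an exact permutation p of 0.2 (two-sided, 0.6 after adjustment over the 6 pairs). RNA of either miRNA could bind the probes of the other, and what this did to their ratio was not tested.

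mmu-miR-107-3p over mmu-miR-425-5p lay between 4.31 and 4.63, with overlapping groups. Ratios that involve mmu-miR-191-5p varied more. mmu-miR-103-3p over mmu-miR-191-5p ran from 185 to 231 and mmu-miR-107-3p over mmu-miR-191-5p from 124 to 159, with log2 SDs of 0.13 and 0.16. mmu-miR-191-5p over mmu-miR-425-5p, the pair that shares a locus, ran from 0.0283 to 0.0348, with an SD of 0.13 and a log2 difference between the groups of −0.14. No pair had an exact permutation p under 0.2, and 3 arrays against 2 allow none under 0.1. With normexp and quantile normalization of the spots, mmu-miR-103-3p over mmu-miR-107-3p reached that smallest value, an exact permutation p of 0.1, at a log2 difference of −0.047, and without flagellin replicate 2 its difference was −0.022.

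Because these miRNAs serve as references, their spread over all 5 arrays, whatever the treatment, was set against that of the 277 miRNAs detected on every array. Before scaling, the SD of the log2 signal was 0.19 for mmu-miR-103-3p, 0.21 for mmu-miR-107-3p, 0.20 for mmu-miR-425-5p and 0.14 for mmu-miR-191-5p, beside a median of 0.21 over the 277 miRNAs. Counted from the steadiest, these were ranks 118, 140, 124 and 65. mmu-miR-191-5p was thus just under the lower quartile of the 277, which was 0.147, and the other members lay nearer the median.

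After scaling, the SD was 0.079 for mmu-miR-103-3p (rank 36), 0.084 for mmu-miR-107-3p (rank 44) and 0.072 for mmu-miR-425-5p (rank 22), with a median of 0.13 over the 277. All 3 were below the lower quartile of the 277, which was 0.097. The signal of mmu-miR-425-5p itself lay close to the percentile used for scaling, with scaled values of 0.825 to 0.933. Its rank is therefore not independent of that choice. mmu-miR-191-5p was at 0.11 (rank 91) and mmu-miR-191-3p at 0.34 (rank 252). Summing only the probes that passed on all arrays gave mmu-miR-191-3p an SD of 0.18. These SDs moved with single arrays. Without flagellin replicate 1 they were 0.054 for mmu-miR-103-3p, 0.039 for mmu-miR-107-3p and 0.037 for mmu-miR-425-5p. Without flagellin replicate 3 they rose to 0.105, 0.099 and 0.097 in the same order. mmu-miR-191-5p ranged from 0.070 (without flagellin replicate 2) to 0.139 (without flagellin replicate 1). mmu-miR-191-3p ranged from 0.14 (without flagellin replicate 3) to 0.39 (without medium replicate 2). With scaling to the median instead, the SD was 0.118 for mmu-miR-103-3p, 0.131 for mmu-miR-107-3p and 0.114 for mmu-miR-425-5p. Ranks among all miRNAs were not taken under that scaling.

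A measure that needs no scaling, the median SD of a miRNA's log2 ratios to all others, gave 0.15 for mmu-miR-103-3p (rank 38), 0.16 for mmu-miR-107-3p (rank 53), 0.15 for mmu-miR-425-5p (rank 30) and 0.16 for mmu-miR-191-5p (rank 50), with a median of 0.19 over the 277. By it all 4 were steadier than most miRNAs, though mmu-miR-191-5p was near the detection limit. These ranks are descriptions of 5 arrays and no test was made of them.

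**Figure D3:**
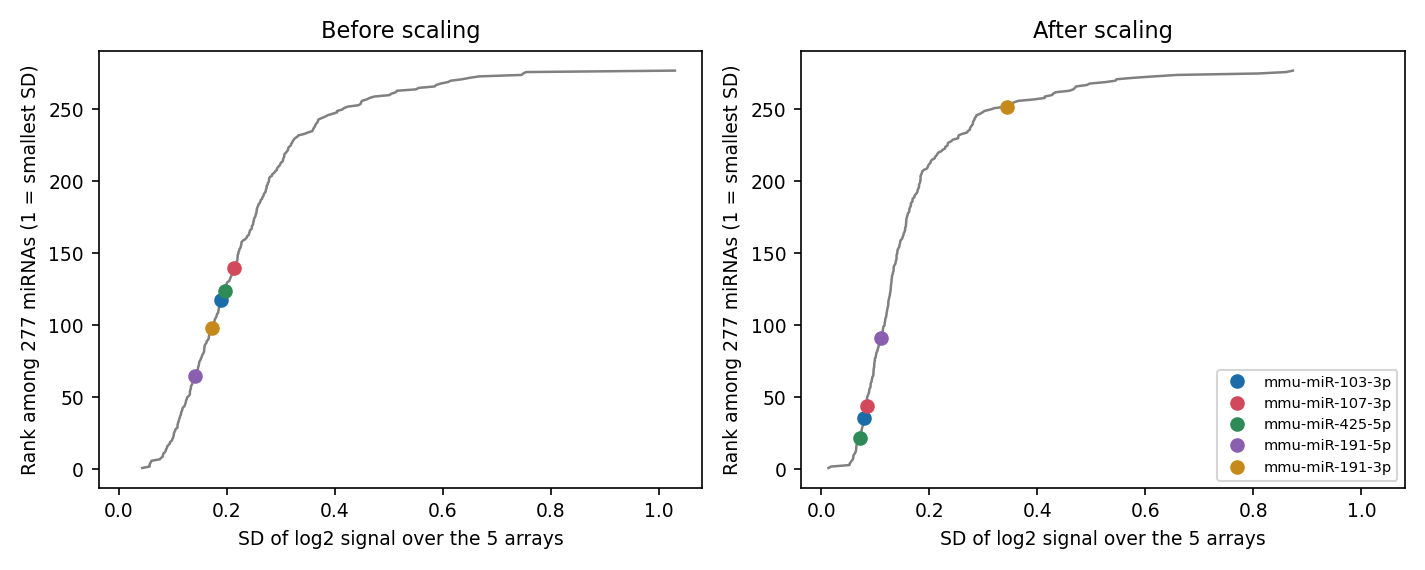
SD of the log2 signal over the 5 arrays (horizontal) against its rank among the 277 miRNAs detected on every array (vertical, rank 1 is the smallest SD), before (left) and after (right) scaling. The grey line holds all 277 miRNAs. mmu-miR-103-3p, mmu-miR-107-3p and mmu-miR-425-5p moved from ranks 118, 140 and 124 to ranks 36, 44 and 22.

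Used as the reference themselves, the mean log2 signal of mmu-miR-103-3p, mmu-miR-107-3p, mmu-miR-191-5p and mmu-miR-425-5p was set against the 75th percentile of each array. Centred over the arrays, it was 0.18, 0.10 and −0.26 with flagellin and 0.064 and −0.089 in medium. The centred log2 of the 75th percentile was 0.11, 0.17 and −0.31 against 0.11 and −0.083. The difference between these measures lay between −0.065 (flagellin replicate 2) and 0.074 (flagellin replicate 1). Without mmu-miR-191-5p in the reference it ran wider, from −0.092 (medium replicate 1) to 0.11 (flagellin replicate 1). Scaling all miRNAs to the 4 members gave 2 miRNAs under the adjusted threshold in limma's test, again miR-466i-3p and miR-5112.

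At the level of single probes, 10 of the 23 exceeded 3 errors on all arrays, 12 on no array and 1 on some arrays. mmu-miR-103-3p had an 18 nt and a 17 nt probe, each printed in 20 spots. The 18 nt probe read 1119, 1032 and 778 with flagellin and 949 and 908 in medium, and the 17 nt probe read 596, 555 and 433 against 548 and 499. Their ratio was 1.73 to 1.88 on the 5 arrays, and both ranked the arrays in the same order. Their scaled log2 differences, flagellin minus medium, were 0.082 for the 18 nt probe and 0.027 for the 17 nt probe.

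The 20 nt probe of mmu-miR-107-3p read 897, 870 and 616 with flagellin and 769 and 717 in medium, and its 19 nt probe read 282, 264 and 200 against 234 and 226. After scaling, the groups were apart for the 20 nt probe and overlapped for the 19 nt probe. Both probes of mmu-miR-425-5p, at 18 nt and 17 nt, kept a ratio of 2.61 to 2.80. No probe had a p under 0.2 in an exact permutation test of the scaled log2 signal.

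The probes of mmu-miR-191-5p were the shortest of the 5 detected arms, and they are shown because the shorter ones were below background and the longer ones above it.

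mmu-miR-191-5p, 12 nt probe: cagctgcttttg

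mmu-miR-191-5p, 13 nt probe: cagctgcttttgg

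mmu-miR-191-5p, 14 nt probe: cagctgcttttggg

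mmu-miR-191-5p, 15 nt probe: cagctgcttttggga

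The 12 nt and 13 nt probes were below 0 after background subtraction on every array. The 14 nt probe read 4.07, 4.09 and 3.61 with flagellin and 4.51 and 4.06 in medium, at 4.14 to 5.23 times its error. The 15 nt probe read 3.36, 3.07 and 2.67 against 3.59 and 2.63, at 3.14 to 4.39 times its error. The level of mmu-miR-191-5p thus rested on 2 probes, whose spots varied by 16.7% to 27.4% (coefficient of variation) within an array, against 3.85% to 9.87% for the probes of mmu-miR-103-3p.

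mmu-miR-191-3p had 4 probes, of 18 nt to 21 nt, and their signal over error was higher for longer probes. The 18 nt probe stayed at 1.45 to 1.97 errors, and the 20 nt and 21 nt probes were at 3.17 to 3.95 and at 4.83 to 5.56. The 19 nt probe lay at the limit, between 2.72 and 3.13 errors, and passed on flagellin replicate 3 alone. On that array its signal entered the total, which is where the value of 10.4 came from. The 9 probes of the 3 undetected arms ranged from −0.47 to 1.34 errors.

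**Figure D4:**
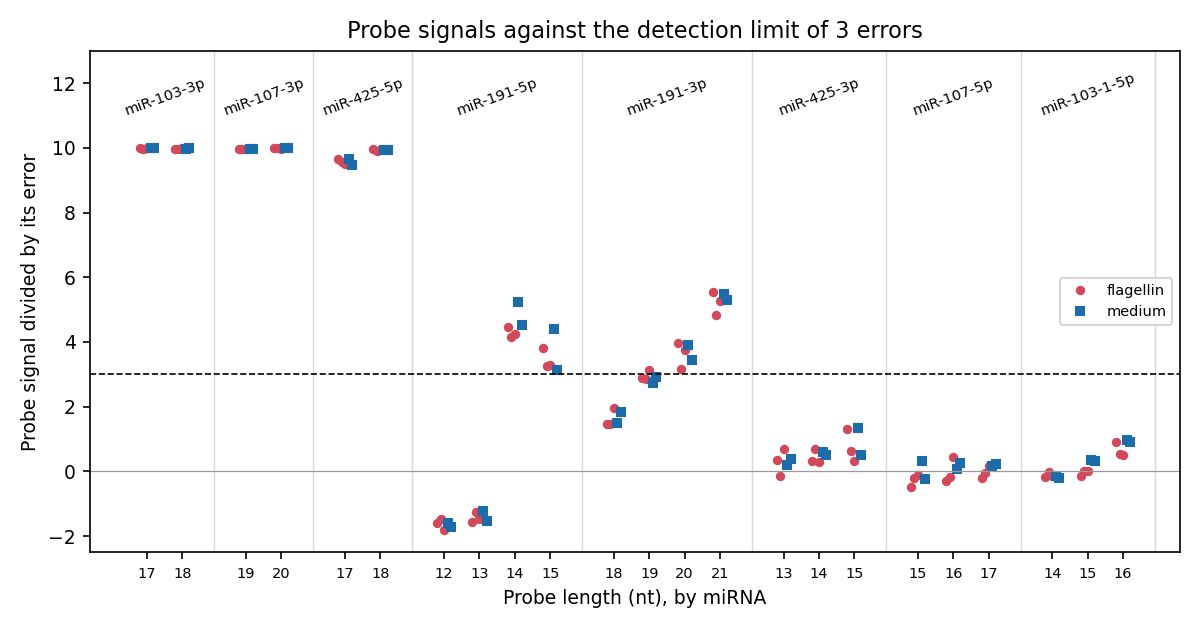
Signal of each of the 23 probes divided by its error, by miRNA and probe length (nt), on the 3 flagellin arrays (circles) and 2 medium arrays (squares). The dashed line is the detection limit of 3 errors. Probes of mmu-miR-103-3p, mmu-miR-107-3p and mmu-miR-425-5p lie far above it, those of miR-191 cross it with length, and the 3 other arms stay below it.

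No probe of mmu-miR-107-5p, mmu-miR-103-1-5p or mmu-miR-425-3p could be told from background on any array at this sensitivity. The probes of mmu-miR-103-1-5p are annotated to both Mir103 loci. For miR-191 both arms were detected, each with low signals on every array.

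Other miRNAs commonly used as references were read in the same way, from a list of 12 on the array. Of these, 10 were tested, none passed limma's adjusted threshold and none had an unadjusted p under 0.05, beside the 0.651% of all tested miRNAs that passed. Their median log2 difference was 0.10, with 8 higher and 2 lower, against a median of 0.0095 over all 307. After scaling, the groups were apart, with flagellin higher, for 5 of the 10, beside 11.4% of all tested miRNAs. Before scaling, the groups of all 10 overlapped. mmu-miR-16-5p, described next, is among the 10. mmu-let-7a-5p, a member of the let-7 family, had the smallest scaled SD of the list, 0.066 (rank 17). mmu-miR-423-5p had the largest, 0.16 (rank 179). mmu-miR-423-3p was detected on no array and mmu-miR-186-5p on 1 array.

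The group of miR-15, miR-16 and their relatives, without miR-103 and miR-107, had 7 arms on the array, and 6 were tested. By limma, none passed the adjusted threshold and none reached an unadjusted p under 0.05. All 6 had positive log2 differences, from 0.055 to 0.32 with a median of 0.14. Of the 6, only mmu-miR-16-5p had its groups apart, with flagellin higher and only after scaling, beside 11.4% of all tested miRNAs. It gave 4956, 4710 and 3302 with flagellin and 4212 and 3646 in medium. Its log2 difference was 0.14 with a standard error of 0.085 (limma adjusted p = 0.859). mmu-miR-503-5p varied most of the 5 detected on all arrays, with a scaled SD of 0.43.

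The miRNAs whose scaled profile over the 5 arrays was nearest to that of each member, by the root mean square distance of the centred log2 values, were found among 272 others. For mmu-miR-103-3p these were mmu-miR-17-5p (0.013) and mmu-miR-23b-3p (0.015), and for mmu-miR-107-3p mmu-miR-130b-3p (0.020) and mmu-miR-23a-3p (0.020). For mmu-miR-425-5p they were mmu-miR-301b-3p (0.0100) and mmu-miR-25-3p (0.016). For mmu-miR-191-5p they were mmu-miR-181a-1-3p (0.021) and mmu-miR-1198-5p (0.041). The median distance was 0.14 for each member. Among the members, mmu-miR-103-3p was at 0.024 from mmu-miR-425-5p and at 0.035 from mmu-miR-107-3p. RNA of mmu-miR-103-3p and mmu-miR-107-3p could bind each other's probes, and what this did to their distance was not tested. mmu-miR-191-5p was at 0.12 to 0.15 from the other members, mmu-miR-425-5p of the same locus included.

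Markers of the cells and of possible others were read beside these values. All 4 haematopoietic and myeloid miRNAs listed were detected on every array, and mmu-miR-223-3p, the myeloid miRNA, gave 2499 to 3464 over the 5 arrays. mmu-miR-155-5p, which rises when myeloid cells are activated, had a log2 difference of 0.35 with a limma adjusted p of 0.650 and was the only 1 of the 4 with an unadjusted p under 0.05. The log2 differences of the others were −0.25 for mmu-miR-142-3p, 0.029 for mmu-miR-142-5p and 0.096 for mmu-miR-223-3p. The lymphoid mmu-miR-150-5p was detected on no array.

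Flagellin replicate 2 had the highest signals of mmu-miR-451 (17.0, erythroid), mmu-miR-126-3p (29.1, endothelial) and mmu-miR-199a-3p (41.3, stromal). On the other arrays these were at most 5.29, 12.6 and 5.59 respectively. Of 4 stromal miRNAs 3 were detected on no array, as were mmu-miR-144-3p and mmu-miR-126-5p, and of 3 epithelial miRNAs only mmu-miR-200c-3p was detected, on 2 arrays. Without flagellin replicate 2 the log2 differences were 0.088 for mmu-miR-103-3p, 0.11 for mmu-miR-107-3p, 0.10 for mmu-miR-425-5p and −0.010 for mmu-miR-191-5p. In total RNA of many cells, fewer cells with a miRNA and less of it per cell cannot be told apart.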

How the data were processed

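The authors labelled total RNA with Cy3, hybridized it to Agilent mouse miRNA arrays (Release 18.0) and read the scans with Feature Extraction 10.7.3.1 (10.7 in the submitters' notes). The deposited intensity files hold signals per spot and a total gene signal per miRNA, which was rebuilt from the probes for 1122 of 1122 mouse miRNAs on each array. The file headers name mm9 for the probes' annotation, whereas the RefSeq sequences and loci given are of GRCm38.p6. The authors' deposited log2 table equalled log2 of the total gene signal minus a constant per array, and was used as an alternative.

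Total gene signals of an array were divided by their 75th percentile over the miRNAs that all 5 arrays detected, values under the floor of 0.0121 (the lowest detected scaled signal of each array, at its highest over the arrays) were set to it, and log2 was taken. Undetected miRNAs are given 0.1 in the files. limma 3.58.1 (R 4.3.3) compared 3 flagellin with 2 medium arrays over 307 miRNAs detected on at least 2 arrays, with Benjamini-Hochberg adjustment. Ratios and probes were tested by exact permutation. The fit was tested on simulated data with changes larger than those of the members, so it does not show how well changes of their size are found. The number of arrays limits the precision. The members, the lists and the rule for the nearest miRNAs (the 2 nearest of each member) were chosen with earlier results of these data known. Alternatives covered scaling, floor, filters, background correction, blocks for replicate number, array row and array column, the methods' t-test, single arrays left out and, chosen after seeing the data, the probes summed.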

Additional observations from a re-analysis of the deposited data

How the results depend on the processing

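No detected arm had an adjusted p under 0.05 in any of the 22 alternatives run, where the lowest was 0.389. mmu-miR-107-3p kept a positive difference in all of them (0.029 to 0.29). With single arrays left out, mmu-miR-103-3p ranged from −0.021 to 0.091, mmu-miR-425-5p from −0.00061 to 0.10 and mmu-miR-191-3p from −0.066 to 0.38. Deviations from the group means of same-numbered arrays had correlations of −0.043 and −0.076. With 2 medium arrays both values rest on the same medium contrast, so they cannot decide whether same-numbered arrays were paired. With a replicate block mmu-miR-191-3p was at −0.039 and mmu-miR-191-5p at −0.14. mmu-miR-191-5p was at 0.12 where the percentile included undetected miRNAs, a setting that moves the median of all miRNAs by 0.18. It was at 0.11 with quantile normalization and at 0.028 with normexp. The normexp setting added an offset of 50 and averaged all probes of a miRNA, detected or not. With it the SD of mmu-miR-191-5p over the arrays was 0.021, against 0.111 in the main setting. The difference in the log2 ratio of mmu-miR-103-3p over mmu-miR-425-5p was 0.0028 with normexp and −0.052 to 0.018 with single arrays left out. That of mmu-miR-107-3p over mmu-miR-425-5p was −0.0063 to 0.063 with single arrays left out, and the 15 nt probe of mmu-miR-191-5p was at −0.026 without scaling. The cause of these reversals was not tested. The scaled SDs of mmu-miR-103-3p, mmu-miR-107-3p and mmu-miR-425-5p were 0.22, 0.23 and 0.21 where the percentile included undetected miRNAs and 0.19, 0.21 and 0.20 without scaling. The number of miRNAs under the adjusted threshold in limma's test, 2 over the 307 tested, was 4 with the authors' values and with the floor divided by 10, and 3 with scaling to the median (mmu-miR-135a-1-3p added). It was 1 without a filter, with limma's trend option and with array column as a random block (mmu-miR-466i-3p each time) and 1, mmu-miR-135a-1-3p, among miRNAs detected on all arrays. The methods' t-test with adjustment gave 2, mmu-miR-466i-3p and mmu-miR-483-5p, without mmu-miR-5112. It was 0 with undetected miRNAs in the percentile, quantile normalization, no scaling, normexp, no detection rule, the replicate block and the array row block (unadjusted p under 0.05: 14, 17, 8, 24, 17, 39 and 15 miRNAs), and 0 to 0 with each array left out (4 to 58 miRNAs unadjusted).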

Other observations

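Among the 277 miRNAs detected on every array, the smallest scaled SDs belonged to mmu-miR-146b-3p (0.014) and mmu-miR-28-3p (0.019), named after their values were seen. The values of both on the medium arrays stood at the common floor, so their spread there was 0. The lowest flagellin value of each was at the floor as well. Before scaling, without a floor, their SDs were 0.21 and 0.17. Next by scaled SD came mmu-miR-30c-5p (0.052), mmu-miR-3096b-5p (0.053), mmu-miR-669b-5p (0.055) and mmu-miR-10a-5p (0.057), all below mmu-miR-425-5p at 0.072.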
